A study of Mus musculus with 28 samples.

Results

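The comparison described here asks whether the effect of the 5xFAD transgenes on hippocampal mRNA differs between mice with and without Zbp1, that is, (Zbp1-/- 5xFAD minus Zbp1-/-) minus (5xFAD minus WT) on the log2 scale. It uses 12 of the 28 libraries of the series: WT, 5xFAD, Zbp1-/- and Zbp1-/- 5xFAD (double carriers), with 3 libraries each, numbered 1 to 3 in the labels. Polyadenylated RNA came from hippocampus of mice aged 9 months, taken after behaviour tests. The Zbp1 cohort and a cohort carrying the kinase-dead Ripk1 allele (Ripk1D138N/D138N) each had WT mice of their own, of common ancestry, and the Ripk1 cohort adds 12 libraries of the same layout. 4 further libraries, of a ZBP1 RNA immunoprecipitation and its inputs, were not used. A negative interaction means that 5xFAD raised a gene less, or lowered it more, on the Zbp1-/- background than on the WT background. The sources used here do not state sex, zygosity or the form of the Zbp1 deletion, and the labels do not say whether each library is a separate animal, so the p-values measure only the spread between these libraries.

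The 5xFAD line carries human transgenes with familial Alzheimer's disease mutations, APP among them, under the mouse Thy1 promoter, which is active in neurons, and it forms amyloid plaques surrounded by activated microglia and astrocytes. ZBP1 is a sensor of Z-form nucleic acids and is itself induced by interferon. Through RIPK1 and RIPK3 it can drive inflammatory signalling and, with MLKL, necroptotic cell death. Type I interferons act through a complex that holds STAT2 and IRF9 and binds interferon-stimulated response elements of antiviral genes such as the Ifit, Oas and Mx families. Interferon-gamma strongly induces guanylate-binding proteins (Gbp), immunity-related GTPases (Irgm1, Irgm2, Igtp) and the MHC class I pathway. In brain, microglia are a main source of these transcripts, with astrocytes and vascular cells also responding. In bulk tissue, fewer cells of a type and less RNA per cell cannot be told apart.

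Library totals were 8362348 counts for WT 1 and between 27144481 and 34640479 for the other libraries. Levels are given in CPM, counts of a gene scaled to a common library total over the genes tested with TMM factors. WT 1 held 4.70 CPM of Cst7, a plaque microglia gene, against 0.128 and 0.334 CPM in the other WT libraries. WT 2 and 5xFAD 2 had less Malat1 than the rest (994 and 791 CPM, against 1938 to 2971 CPM), and levels of the choroid plexus gene Ttr lay between 16.7 and 4442 CPM. Some results that rest on these libraries are given with and without them, but not every gene value is. Prox1, a dentate granule cell gene, was looked at as a marker of hippocampus. It was at 54.3 CPM in 5xFAD 2, apart from the other libraries, which lay between 124 CPM (WT 2) and 179 CPM (Zbp1-/- 5xFAD 3).

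No gene passed the test of the interaction. Of 21274 genes tested with edgeR's quasi-likelihood test, 0 had an adjusted p under 0.05 (0% called), and the smallest adjusted p was 0.9999. At an unadjusted p under 0.05 there were 480 genes, 306 with a negative interaction (1.44% of the genes tested) and 174 with a positive one (0.818%). Together they were 2.26% of the genes, less than the share of 0.05 expected where no gene has an interaction. The count by itself therefore shows no interaction. DESeq2 called 0 genes and gave 223 positive and 364 negative genes at that level. Limma voom also called 0. Without a filter on low counts edgeR called 29 genes, 13 positive and 16 negative. The negative ones included Gbp5, Gbp2, Igtp, Irgm2, Spp1, Cd44, Cd74 and Sgk1, and also Ptgds and the ribosomal protein genes Rpl37a and Rpl21. The positive ones included Tmem254c and the choroid plexus list genes Folr1, Clic6, F5, Kl, Aqp1, Slc4a5 and Enpp2. The choroid plexus median changed sign without WT 2 and 5xFAD 2, and the ribosomal protein median without 5xFAD 2 (below). The median standard error of a gene's interaction was 0.33 on the log2 scale. So gene values below are estimates with standard errors (SE) and unadjusted p-values from edgeR, and none of them is a called change. When each library was left out in turn, 33 of the 78 genes recomputed and 34 of 38 list medians moved by over 1.5 times or changed sign at least once. The medians that did not were those of interferon-stimulated, MHC class I, lysosomal and oligodendrocyte precursor genes.

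The components of the interaction did contain called genes. In 5xFAD against WT, 638 genes were called higher (3%) and 27 lower. In Zbp1-/- 5xFAD against Zbp1-/-, 252 were called higher (1.18%) and 9 lower. A smaller count on the Zbp1-/- background is not a test of the difference, which is the interaction itself. Zbp1-/- 5xFAD against 5xFAD gave 0 calls by edgeR, with 642 higher and 1233 lower genes at an unadjusted p under 0.05, while DESeq2 called 3 higher and 153 lower and voom 115 genes. Zbp1-/- against WT gave 0 calls by edgeR, with 377 higher and 402 lower at the unadjusted level, and DESeq2 called 1 gene.

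Zbp1 itself was sparsely counted. Its raw counts were 0, 12 and 3 in WT, 52, 52 and 125 in 5xFAD, 0, 0 and 11 in Zbp1-/- and 11, 9 and 9 in Zbp1-/- 5xFAD. Each 5xFAD library exceeded every library of the other genotypes, and the Zbp1-/- libraries overlapped WT. Some reads were assigned to Zbp1 in 4 of the 6 libraries labelled as knockout, and which part of the gene they cover was not analysed here. The interaction of Zbp1 was -2.11 ± 1.41 (SE, edgeR unadjusted p = 0.157). Without Zbp1-/- 3 that genotype is at 0 in every library, and the fitted value then depends on the prior count.

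Genes that act with ZBP1 gave small or imprecise interactions. Ripk1, the kinase that ZBP1 engages, had 6.93 ± 1.36 CPM in WT, 11.2 ± 1.61 in 5xFAD, 6.53 ± 0.89 in Zbp1-/- and 9.78 ± 1.06 in Zbp1-/- 5xFAD (SD, n = 3), an interaction of -0.12 ± 0.28. Ripk3, the kinase that phosphorylates MLKL, stayed under 1 CPM in all 12 libraries and its interaction was -2.03 ± 1.23 (unadjusted p = 0.120). Mlkl, the executor of necroptosis, lay between 0.0639 and 0.688 CPM, with an interaction of -0.06 ± 1.14, so no difference was detectable at this depth. Over the list of necroptosis and death-receptor genes 0 of 20 tested members reached an unadjusted p under 0.05, and the median interaction was -0.21, against -0.01 over all genes. Cyld, a deubiquitinase of RIPK1 signalling, had 0.25 ± 0.13. Of 16 inflammasome and gasdermin genes, 1 was negative at that level, Gsdmd, which encodes a pore-forming effector of pyroptosis (-0.82 ± 0.32, unadjusted p = 0.0245). Nlrp3, an inflammasome sensor, had -1.10 ± 0.52.

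The interferon-gamma-type GTPases and chemokines had the lowest median interaction of the 38 lists, -1.16 over 26 tested members, with 21 members below 0 (51.2% of all genes were below 0). Of these, 11 were negative at an unadjusted p under 0.05 and 0 positive, where 1.44% of all genes were negative at that level. Their median 5xFAD effect was 2.32 on WT, with 17 members called higher (3% of all genes were). It was 0.91 on Zbp1-/-, with 5 called higher (1.18% of all genes). On Zbp1-/- 25 of 26 members were above 0, and 14 were higher at an unadjusted p under 0.05. The summed level of the list lay between 57.4 and 74.9 CPM in WT, 236 and 386 in 5xFAD, 56.3 and 85.3 in Zbp1-/-, and 137 and 158 in Zbp1-/- 5xFAD. The 5xFAD libraries were the highest 3 and did not overlap the Zbp1-/- 5xFAD libraries. Negative signs were not particular to this list. Of 1555 genes called higher in 5xFAD of the Ripk1 cohort, on no interferon-type, microglial, complement or lysosome list, 82.7% were below 0.

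Gbp5 (ENSMUSG00000105504), a guanylate-binding protein that promotes inflammasome assembly, had the smallest p of the named negative genes. It was measured at 2.65, 2.01 and 2.98 CPM in WT and at 11.8, 7.80 and 15.4 CPM in 5xFAD. It was at 3.78, 5.44 and 6.27 CPM in Zbp1-/- and at 5.35, 6.59 and 6.89 CPM in Zbp1-/- 5xFAD. All 5xFAD libraries lay above the rest, while Zbp1-/- lay above WT and overlapped Zbp1-/- 5xFAD. The interaction was -1.92 ± 0.39 (edgeR unadjusted p = 0.000225). It combined a lower level in Zbp1-/- 5xFAD than in 5xFAD (-0.89) with a higher level in Zbp1-/- than in WT (1.03). The 5xFAD effect was 2.20 on WT (edgeR adjusted p = 0.000379) and 0.28 on Zbp1-/- (adjusted p = 0.996).

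Irgm1 (ENSMUSG00000046879), a GTPase that regulates autophagy and restrains the other immunity-related GTPases, was at 8.08, 9.84 and 6.39 CPM in WT and at 25.4, 25.8 and 48.6 in 5xFAD. In Zbp1-/- it was at 7.69, 8.84 and 10.9 CPM, and in Zbp1-/- 5xFAD at 16.4, 18.2 and 17.6. Here WT and Zbp1-/- overlapped, and Zbp1-/- 5xFAD fell between them and 5xFAD without overlap. Its interaction was -1.11 ± 0.35 (unadjusted p = 0.00629). Gbp3, another guanylate-binding protein, showed the same order, with means of 5.00, 19.5, 4.67 and 9.06 CPM in WT, 5xFAD, Zbp1-/- and Zbp1-/- 5xFAD, and an interaction of -1.03 ± 0.32. Irf8, a transcription factor of microglia and macrophages that sits on the same list, behaved differently, with 5xFAD effects of 2.55 on WT and 2.28 on Zbp1-/- and an interaction of -0.27 ± 0.32.

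5xFAD 3 weighed on this list. It held 34.8 CPM of Igtp, an immunity-related GTPase, against 8.94 and 8.49 in the other 5xFAD libraries, and 30.0 CPM of Irgm2 against 9.26 and 13.4. Both genes were chosen after their values were seen. Their interactions were -1.86 ± 0.67 and -1.59 ± 0.55, and -0.85 and -0.96 without 5xFAD 3. Irgm1 was at -0.73 without it. Without 5xFAD 3 the median of the list was -0.74 and 6 members were negative at an unadjusted p under 0.05. Without Zbp1-/- 3 there were 7, and without WT 2 and 5xFAD 2 there were 15, with a median of -1.64.

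**Figure D1:**
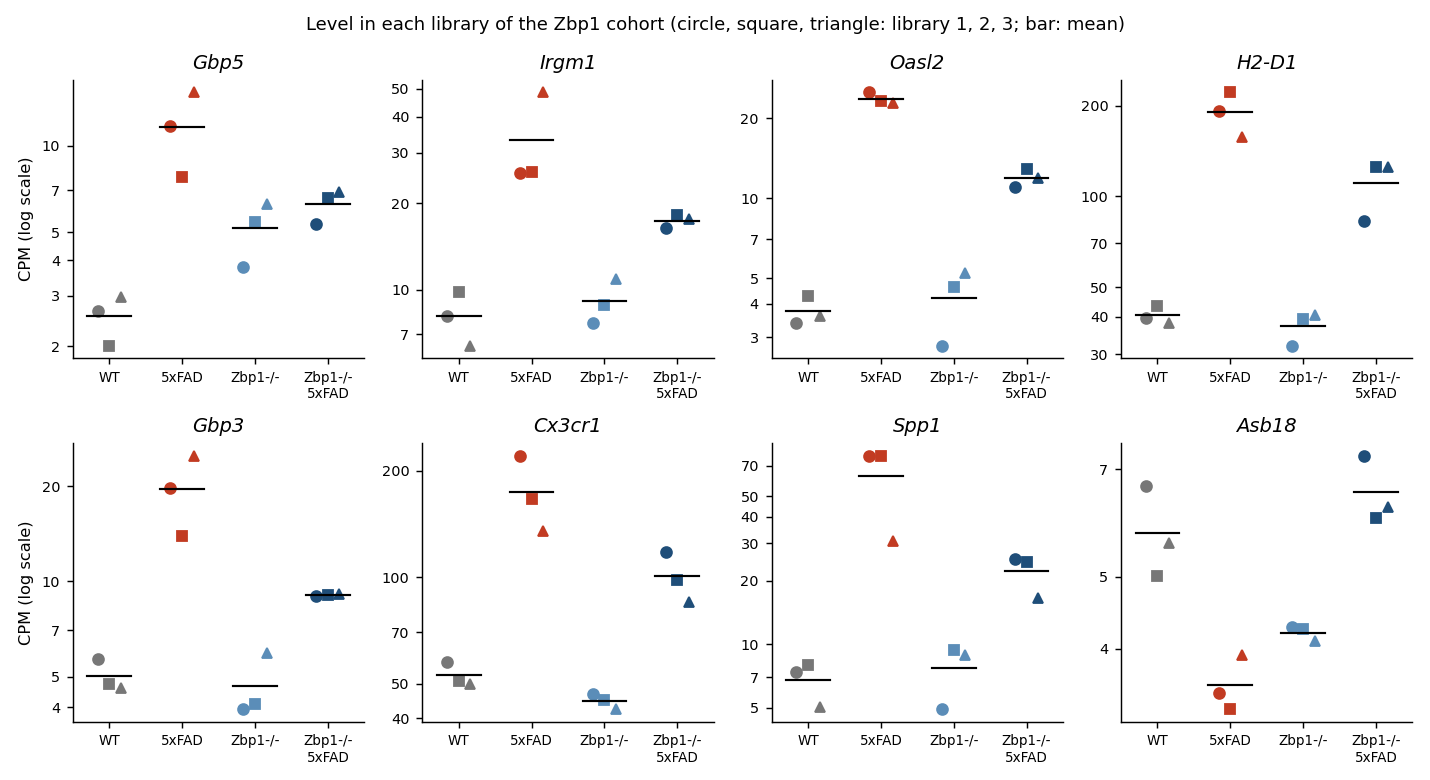
CPM on a log scale in each of the 12 libraries for 8 genes, by genotype (marker shape: library number; bar: mean of 3 libraries). In Gbp5, Irgm1, Oasl2, H2-D1, Gbp3, Cx3cr1 and Spp1 the 5xFAD libraries are the highest and Zbp1-/- 5xFAD lies below them; in Asb18 the 5xFAD libraries are the lowest.

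Interferon-stimulated genes gave a median interaction of -0.71, with 44 of 46 tested members below 0. Of them 13 were negative and 0 positive at an unadjusted p under 0.05. The median 5xFAD effect was 1.70 on WT, with 31 members called higher (3% of all genes were). It was 0.90 on Zbp1-/-, with 7 called higher (1.18% of all genes). On Zbp1-/- all 46 members were above 0, and 32 were higher at an unadjusted p under 0.05. Without the transgenes the median of Zbp1-/- minus WT was 0.01. The list summed to 222 ± 19.6 CPM in WT, 532 ± 34.4 in 5xFAD, 220 ± 19.9 in Zbp1-/- and 352 ± 14.03 in Zbp1-/- 5xFAD (SD, n = 3), and the ranges of 5xFAD (502 to 569) and Zbp1-/- 5xFAD (335 to 361) did not overlap. The count of negative members at that level was 8 without Zbp1-/- 3 and 26 without WT 2 and 5xFAD 2.

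Oasl2 (ENSMUSG00000029561), an antiviral member of the oligoadenylate synthetase-like family, was higher in every 5xFAD library than in any Zbp1-/- 5xFAD library. Its level was 3.38, 4.28 and 3.61 CPM in WT and 24.98, 23.2 and 22.8 CPM in 5xFAD. The level was 2.78, 4.63 and 5.22 CPM in Zbp1-/- and 10.99, 12.8 and 11.9 CPM in Zbp1-/- 5xFAD. WT and Zbp1-/- overlapped, and the 5xFAD and Zbp1-/- 5xFAD libraries were apart from them and from each other. The 5xFAD effect was called on both backgrounds, at 2.64 on WT (edgeR adjusted p = 1.21e-05) and 1.496 on Zbp1-/- (adjusted p = 0.00158). The interaction was -1.14 ± 0.29 (unadjusted p = 0.00164).

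Oas1a, which makes the second messenger that activates RNase L, had the larger but less precise interaction of -2.12 ± 0.62, from 4.59, 3.86 and 2.89 CPM in 5xFAD and 0.956, 1.35 and 0.695 CPM in Zbp1-/- 5xFAD, with WT and Zbp1-/- under 0.53 CPM. Its groups of 5xFAD libraries did not overlap. The most abundant members of the list moved little: Stat2, the type I interferon signal transducer, had -0.15 ± 0.20 and Cmpk2, a mitochondrial nucleotide kinase, had -0.18 ± 0.20.

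All 20 members of the MHC class I and peptide-loading list had a negative interaction, with a median of -0.64, and 8 were negative at an unadjusted p under 0.05. The median 5xFAD effect was 1.58 on WT, with 15 called higher (3% of all genes were). It was 0.85 on Zbp1-/-, with 9 called higher (1.18% of all genes). On Zbp1-/- 19 of 20 members were above 0, and 14 were higher at an unadjusted p under 0.05. H2-D1, a classical class I heavy chain, was at 39.7, 43.4 and 38.2 CPM in WT, 191, 221 and 158 in 5xFAD, 32.1, 39.2 and 40.5 in Zbp1-/-, and 82.7, 125 and 125 in Zbp1-/- 5xFAD. The 5xFAD libraries did not overlap those of Zbp1-/- 5xFAD, and H2-D1 was called higher in 5xFAD on both backgrounds, with effects of 2.23 and 1.57. Its interaction was -0.66 ± 0.23. B2m, the light chain of class I molecules, had -0.64 ± 0.27, and H2-T23, a non-classical heavy chain, had -0.76 ± 0.26. Nlrc5, the transactivator of class I genes, had -1.69 ± 0.59, from 11.3, 5.59 and 22.4 CPM in 5xFAD and 7.11, 7.23 and 6.92 CPM in Zbp1-/- 5xFAD, and its 5xFAD groups overlapped. Without 5xFAD 3 the value was -1.05. H2 genes are near-identical copies of each other, so reads may be split between them. The count of members negative at that level was 4 without Zbp1-/- 3 or Zbp1-/- 5xFAD 1, and 5 without WT 1. Class II genes were less precise: 8 of 9 were below 0 with a median of -0.40 and 0 reached an unadjusted p under 0.05, with Cd74, the class II invariant chain, at -1.15 ± 0.73 and H2-Eb1, a class II beta chain, at -1.30 ± 0.85. The class II median was -1.06 without WT 2 and -0.21 without 5xFAD 2.

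The promoters of these genes were searched for GAAANNGAAA, the core of the interferon-stimulated response element, on both strands of the 300-base windows that RefSeq gives around gene starts (GRCm38.p6). The first listed window of each symbol was used. The motif was in 19 of 35 interferon-stimulated genes with a window (54.3%), 10 of 18 GTPases and chemokines (55.6%) and 5 of 16 class I genes (31.2%), against 3.49% of all 27025 symbols. A second motif, TTCNNNGAA, the pattern of the gamma-activated site, was searched in the same way. It was in 8 of 18 GTPases and chemokines (44.4%), 6 of 35 interferon-stimulated genes (17.1%) and 1 of 16 class I genes (6.25%), against 8.47% of all symbols. These lists were drawn up from known interferon targets, so the shares describe the lists. From here on, the motif means GAAANNGAAA. The stretches that carry the motif before the start are shown for the named genes of the 3 lists in which it was found, each read 5′ to 3′ on the gene's strand with the motif, or its reverse complement, in capitals.
Gbp5: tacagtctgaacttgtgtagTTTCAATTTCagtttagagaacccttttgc
Gbp3: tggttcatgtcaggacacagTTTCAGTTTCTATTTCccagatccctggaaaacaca
Irgm1: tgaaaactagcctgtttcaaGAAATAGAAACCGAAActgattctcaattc
Oas1a: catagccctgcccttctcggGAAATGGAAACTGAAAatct
Stat2: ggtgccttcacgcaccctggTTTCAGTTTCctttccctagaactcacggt
H2-T23: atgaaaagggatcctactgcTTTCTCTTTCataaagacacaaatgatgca
B2m: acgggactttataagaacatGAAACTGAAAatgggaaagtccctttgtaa

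The Gbp5 stretch is chr3:142496749-142496798 on the plus strand, and its motif begins 165 bases before the start. In Gbp3 (chr3:142559979-142560034, plus) 2 overlapping copies begin 45 and 39 bases before the start. In Irgm1 (chr11:48871421-48871470, minus) they begin at 30 and 24 bases, and in Oas1a (chr5:120907526-120907565, minus) at 20 and 14 bases. The Stat2 copy (chr10:128270256-128270305, plus) begins at 222 bases, that of H2-T23 (chr17:36032796-36032845, minus) at 124 and that of B2m (chr2:122147528-122147577, plus) at 139. Oasl2, Cmpk2, Irf8 and H2-D1 had no match before the start. Over all tested genes with a window, irrespective of list, the 413 with the motif had a median interaction of -0.09 and 24 (5.81%) were negative at an unadjusted p under 0.05, against -0.01 and 1.35% of the 13034 without it. Off the 3 lists, 379 genes had the motif, with a median of -0.06 and 2.64% negative at that level. With the transgenes on the WT background, 13.6% of the 413 and 8.44% of the 379 were called higher, against 3.35% of the 13034. Whether the motif went with a negative interaction beyond this difference in induction was not tested.

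Microglial genes gave a smaller negative median than the interferon-type lists. Homeostatic microglial genes had a median interaction of -0.46, with 19 of 20 below 0 and 5 negative at an unadjusted p under 0.05. The list summed to between 639 and 647 CPM in WT, 1183 and 1963 in 5xFAD, 582 and 594 in Zbp1-/- and 883 and 1134 in Zbp1-/- 5xFAD, so the 5xFAD groups did not overlap. Among carriers, microglial marker levels were thus lower in Zbp1-/- 5xFAD than in 5xFAD, as in the interferon-type lists. The part of microglial content in those lists was not tested. Without the transgenes the homeostatic sums of Zbp1-/- lay below those of WT. The median of Zbp1-/- minus WT was -0.33 for homeostatic and -0.46 for plaque-associated microglial genes. It was 0.01 for GTPases and chemokines, 0.01 for interferon-stimulated genes and -0.13 for class I genes. Cx3cr1, the fractalkine receptor, had 221, 167 and 135 CPM in 5xFAD and 118, 98.6 and 85.2 in Zbp1-/- 5xFAD, and its interaction was -0.56 ± 0.22. Sall1, a transcription factor of microglial identity, had -0.45 ± 0.19, and Csf1r, the receptor for microglial survival signals, had -0.39 ± 0.22. With a library left out, the median of the list lay between -0.68 without 5xFAD 3 and -0.35 without 5xFAD 1, where Cx3cr1 was at -0.35 and Csf1r at -0.21.

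Plaque-associated microglial genes rose in 5xFAD on both backgrounds. On WT 26 of 30 were called higher (3% of all genes) and on Zbp1-/- 20 of 30 (1.18% of all genes). Their median interaction was -0.34, and 5 of the 30 were negative at an unadjusted p under 0.05. Spp1, which encodes osteopontin, was at 7.36, 7.95 and 5.05 CPM in WT and 77.9, 77.7 and 30.9 in 5xFAD. It was at 4.94, 9.37 and 8.88 CPM in Zbp1-/- and 25.4, 24.5 and 16.5 in Zbp1-/- 5xFAD. The lowest 5xFAD library was close to the highest Zbp1-/- 5xFAD library without overlapping it, and the interaction was -1.69 ± 0.47 (unadjusted p = 0.00294). Axl, a receptor kinase for dying cells, had -0.66 ± 0.20, Apoe, the lipid carrier, -0.55 ± 0.26, and Ctsb, a lysosomal protease, -0.38 ± 0.19. Trem2, the lipid-sensing receptor of plaque microglia, chosen after its values were seen, had 156, 154 and 74.8 CPM in 5xFAD and 57.1, 59.7 and 47.8 in Zbp1-/- 5xFAD, and -0.77 ± 0.31.

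Clec7a, Cst7 and Itgax, which are low in unaffected brain, had positive interactions of 1.66 ± 1.07, 1.70 ± 1.52 and 1.24 ± 1.12 (chosen after their values were seen). Without WT 1 the values were 0.33 ± 0.72, -0.34 ± 1.36 and -0.46 ± 0.76. Cst7 and Itgax thus changed sign and Clec7a fell to less than its SE, so no direction is given for these genes. WT 1 held 4.70, 4.70 and 4.34 CPM of them, against at most 0.535 CPM in WT 2, WT 3 and the Zbp1-/- libraries. Their levels in 5xFAD, at 33.3 to 111 CPM, exceeded those in Zbp1-/- 5xFAD, at 17.8 to 38.5 CPM, in mean. The median of the plaque list lay between -0.56 without WT 2 and -0.24 without 5xFAD 1.

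Other genes with a small interaction p were on none of the lists described so far. Top2a, a topoisomerase of dividing cells, had means of 0.713, 3.93, 1.14 and 2.17 CPM in WT, 5xFAD, Zbp1-/- and Zbp1-/- 5xFAD, and -1.62 ± 0.45. Pde3b, a phosphodiesterase, had 19.1, 38.2, 21.1 and 26.7 CPM and -0.66 ± 0.17, and Pla2g15, a lysosomal phospholipase, had 23.7, 38.1, 26.2 and 28.2 CPM and -0.58 ± 0.16. In both, 5xFAD was called higher on WT and not on Zbp1-/- (effects of 0.34 and 0.10).

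In Fas and Etv6 the interaction also reflected the controls, with Zbp1-/- minus WT at 1.01 and 0.49 and Zbp1-/- 5xFAD minus 5xFAD at -0.77 and -0.26. Fas, a death receptor that was not on the list of necroptosis and death-receptor genes, was at 1.21, 1.69 and 1.71 CPM in WT, 3.16, 4.07 and 3.09 in 5xFAD, 3.32, 2.14 and 4.004 in Zbp1-/-, and 1.85, 1.92 and 2.28 in Zbp1-/- 5xFAD. Its Zbp1-/- libraries overlapped 5xFAD and lay above WT, and its interaction was -1.77 ± 0.42 (unadjusted p = 0.000876). Etv6, a transcriptional repressor, had means of 13.2, 21.3, 18.7 and 17.8 CPM in WT, 5xFAD, Zbp1-/- and Zbp1-/- 5xFAD and -0.75 ± 0.20.

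To look at the interaction in genes picked without any library of the Zbp1 cohort, the 1734 genes called higher in 5xFAD against WT in the Ripk1 cohort were used (8.11% of the genes tested there). Of them 1714 were tested in the Zbp1 cohort. Their median 5xFAD effect was 0.54 on WT and 0.29 on Zbp1-/-, and the median interaction was -0.25, with 1430 below 0 (83.4%, against 51.2% of all genes). At an unadjusted p under 0.05, 135 were negative and 2 positive. The 89 that sit on the 3 interferon-type lists had a median of -0.72, the 70 on the microglial, complement or lysosome lists and not on those 3 had -0.45, and the 1555 on none of these lists had -0.23. Without 5xFAD 2 the median over all 1714 was -0.12 and 1085 were below 0, and without 5xFAD 3 it was -0.37. Thy1, whose promoter drives the transgenes, had 2159, 2040 and 1462 CPM in 5xFAD and 1583, 1485 and 1468 CPM in Zbp1-/- 5xFAD. The lowest Thy1 level was thus in 5xFAD 3, and the interaction of Thy1 was -0.11 ± 0.18. With log2 Thy1 as a covariate the median over the 1714 genes was -0.17, and the medians of the 3 interferon-type lists were -1.10, -0.67 and -0.58 (GTPases and chemokines, interferon-stimulated genes, class I). That covariate nearly separates carriers from non-carriers. In its fit the median 5xFAD effects of the 1714 genes were -0.30 on WT and -0.49 on Zbp1-/-. The part of transgene level in the interaction was therefore not tested. App, whose counts come from the mouse gene as far as its reads differ from the human transgene, had 0.04 ± 0.11.

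**Figure D2:**
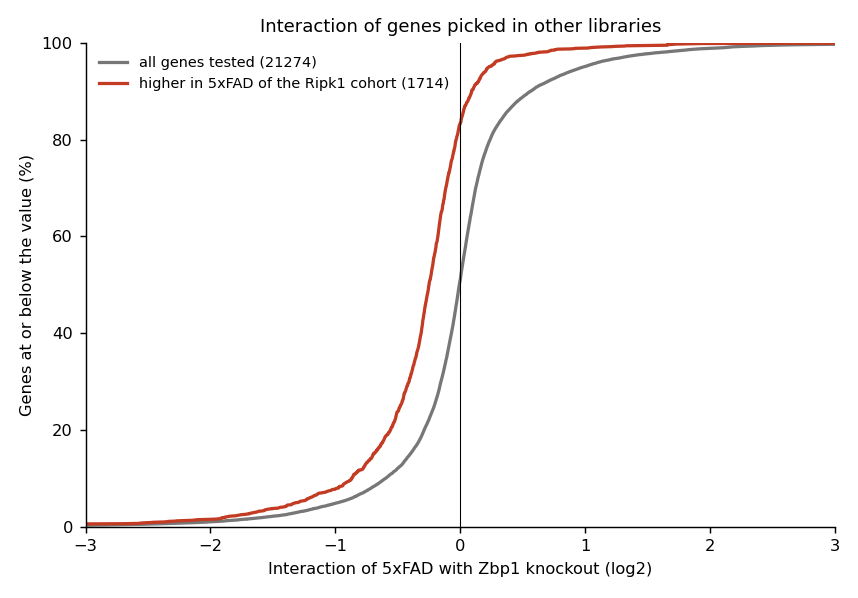
Cumulative share of genes (%) against their interaction of 5xFAD with Zbp1 knockout (log2), for all 21274 genes tested and for the 1714 called higher in 5xFAD in the Ripk1 cohort. The curve of the 1714 lies to the left, with 83.4% of them below 0 against 51.2% of all genes.

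Other glial programmes had medians between -0.37 and -0.12. Complement genes had a median interaction of -0.37 with 0 of 19 at an unadjusted p under 0.05, C1qb, a subunit of the initiating complex, being at -0.48 ± 0.26. Lysosomal genes had -0.28 with 4 of 30 negative, among them Gusb, a glycosidase (-0.71 ± 0.24), and Grn, which encodes progranulin (-0.51 ± 0.21). Reactive astrocyte genes had -0.31 with 2 of 28 negative, Cd44, a hyaluronan receptor (-1.36 ± 0.44), and Gbp2, a guanylate-binding protein also on the GTPase list (-1.46 ± 0.53, and -0.94 without 5xFAD 3). Gfap, the astrocyte intermediate filament, had 502, 2763, 365 and 1651 CPM on average in WT, 5xFAD, Zbp1-/- and Zbp1-/- 5xFAD, was called higher in 5xFAD on both backgrounds, and had an interaction of -0.29 ± 0.22, which was -0.038 without 5xFAD 1. General astrocyte genes summed to 8839 to 11158 CPM over all 12 libraries with a median interaction of -0.16, and Aqp4, the astrocyte water channel, had -0.32 ± 0.18, and -0.13 without 5xFAD 1. Oligodendrocyte lineage lists had medians of -0.12 (myelin, 18 of 20 below 0), -0.21 (precursors, 9 of 10) and -0.13 (disease-associated genes, 8 of 11). Their members negative at an unadjusted p under 0.05 were Mobp, a myelin protein, at -0.33 ± 0.15, Gpr17, a receptor of committed precursors, at -0.57 ± 0.23, and the disease-associated genes Cdkn1a, a cell cycle inhibitor, and Sgk1, a stress-regulated kinase, at -1.13 ± 0.39 and -1.04 ± 0.42. Cytosolic ribosomal protein genes were all negative (38 of 38, median -0.33) with 0 at an unadjusted p under 0.05. Without 5xFAD 2, which summed to 9277 CPM of them against 3960 to 6679 in the other libraries, the median was 0.05.

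Neuronal lists gave small medians of either sign. Inhibitory interneuron genes had a median interaction of -0.029 with 7 of 15 above 0, and genes of cortex and subiculum had -0.11 with 3 of 12 above 0. Synaptic genes had a median interaction of 0.09, from 5xFAD effects of -0.21 on WT and -0.10 on Zbp1-/-, with 31 of 36 above 0 and 1 positive at an unadjusted p under 0.05. That gene was Gria1, an AMPA receptor subunit, with 1271 ± 120 CPM in WT, 1039 ± 96.5 in 5xFAD, 1264 ± 77.4 in Zbp1-/- and 1282 ± 67.3 in Zbp1-/- 5xFAD (SD, n = 3), and an interaction of 0.31 ± 0.14. Camk2a, a kinase of synaptic plasticity, had 0.14 ± 0.13, Snap25, a vesicle fusion protein, 0.16 ± 0.11, and Cacng8, an AMPA receptor auxiliary subunit, 0.21 ± 0.13. GABA-A receptor subunits had a median of 0.12, with 11 of 12 above 0. Potassium channels had 0.13, with Kcna4 at 0.48 ± 0.21, but the median was -0.0046 without 5xFAD 2 and 0.25 without WT 2. Bdnf, an activity-regulated neurotrophin, had 0.37 ± 0.16, and the immediate early gene list a median of 0.21 with no other member at that level. Without WT 1, which had the highest sum of that list (1437 CPM), the median was -0.057. None of them was called.

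**Figure D3:**
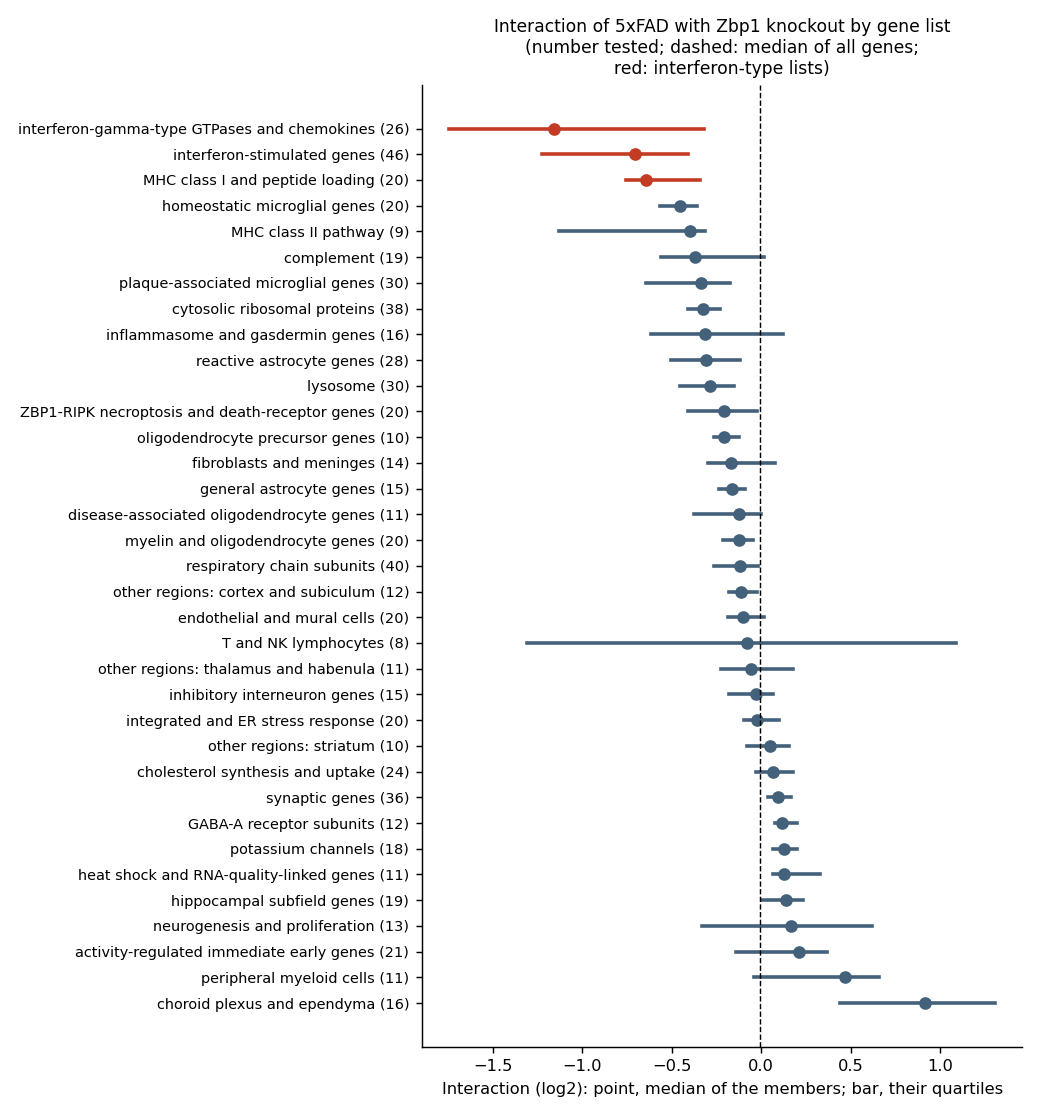
Median (point) and quartiles (bar) of the interaction, in log2, over the tested members of 35 gene lists, with the median of all genes dashed. The interferon-type lists (red) have the lowest medians, -1.16, -0.71 and -0.64, and the choroid plexus list the highest, 0.92.

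Among the named genes with a positive interaction, Asb18 (ENSMUSG00000067081), a substrate-recognition subunit of ubiquitin ligases, had the smallest p. It was at 6.63, 5.01 and 5.55 CPM in WT, 3.48, 3.31 and 3.93 in 5xFAD, 4.28, 4.25 and 4.09 in Zbp1-/-, and 7.30, 6.02 and 6.22 in Zbp1-/- 5xFAD. The 5xFAD libraries were the lowest and did not overlap any other genotype, and the interaction was 1.30 ± 0.28 (unadjusted p = 0.000394). Pparg, a lipid-activated nuclear receptor, had 2.09, 1.01, 1.44 and 1.90 CPM on average in WT, 5xFAD, Zbp1-/- and Zbp1-/- 5xFAD and 1.44 ± 0.48. Ddx10, an RNA helicase, had 0.53 ± 0.17, Rasl12, a small GTPase of the Ras family, 1.02 ± 0.34, Gid8, a ubiquitin ligase subunit, 0.40 ± 0.14, and Bcs1l, an assembly factor of respiratory complex III, 0.64 ± 0.22. Trp63, a p53-family transcription factor, had 1.41 ± 0.50 and Adgrb3, a synaptic adhesion receptor, 0.34 ± 0.12. Tmem254c, one of several near-identical copies, had 0.362, 5.24 and 3.48 CPM within WT alone and is uncertain. Tnfsf8, the ligand of CD30, was at 0 in all Zbp1-/- libraries, at 0.241, 0.0958 and 0.267 CPM in WT, 5.85, 2.83 and 3.47 in 5xFAD and 2.04, 2.56 and 0.861 in Zbp1-/- 5xFAD, so its fitted interaction depends on the prior count and is not given.

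The highest list median, 0.92 for choroid plexus and ependyma genes (15 of 16 above 0, 0 at an unadjusted p under 0.05), came with sums that varied widely within every genotype. The list summed to 441, 7055 and 384 CPM in WT and 258, 6318 and 7505 in 5xFAD. It summed to 646, 2030 and 366 CPM in Zbp1-/- and 795, 4952 and 4422 in Zbp1-/- 5xFAD. High and low libraries occur in every genotype, and without WT 2 and 5xFAD 2 the median was -1.06. Folr1, a folate receptor, had 1.98 ± 1.76, Clic6, a chloride channel protein, 1.30 ± 1.22, and Ttr, the thyroid hormone carrier transthyretin, 0.86 ± 2.13.

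The kinase-dead Ripk1 cohort allows the same interaction to be computed in other libraries, in a fit of 24 libraries and 22565 genes. That interaction called 0 genes higher and 11 lower (0.0487%), among them the interferon-induced genes Oasl2, Isg15, Ifit1, Mx1, Ifit3, Irf7, Ifit3b, Tap1, Cxcl10 and Irf9. They are named because they were called, after their values were seen. The count called lower was not stable. It was 2 with the replicate block, and DESeq2 called 8 genes higher and 34 lower. With a library of the Zbp1 cohort left out, which is not part of that contrast, edgeR called 4 to 14 lower. The Zbp1 interaction called 0 genes in the same fit by edgeR, with 382 positive and 538 negative at an unadjusted p under 0.05, while DESeq2 called 2 positive and 1 negative. The test of the difference between the interactions (Zbp1 minus Ripk1) called 0 genes (0%) by edgeR, DESeq2 and voom, with 309 genes higher (1.37%) and 495 lower (2.19%) at an unadjusted p under 0.05. So no gene was shown to respond differently to the Zbp1 deletion and the Ripk1 mutation.

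Side by side, interferon-stimulated genes had a median of -0.71 in the Zbp1 interaction and -1.61 in the Ripk1 interaction, with 13 and 43 of 46 members negative at an unadjusted p under 0.05, the first in the 12-library fit. Over all genes, 306 of 21274 were negative at that level in the 12-library fit and 387 of 22565 in the Ripk1 interaction. The median difference was 0.81, and 11 members were higher in the Zbp1 interaction at that level. GTPases and chemokines had -1.16 and -1.40, with a median difference of 0.10 and 4 members higher. Class I genes had -0.64 and -1.04. Plaque microglial genes had -0.34 and -0.22, with 4 members lower in the Zbp1 interaction and 0 higher.

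For single genes, Oasl2 had -1.14 in the Zbp1 interaction and -2.71 in the Ripk1 interaction, and Isg15, a ubiquitin-like interferon product, -1.35 and -2.72. Ifit1, an inhibitor of viral translation, had -1.03 and -2.49, and Irf7, the amplifier of type I interferon production, -1.39 and -2.59. Mx1, an antiviral GTPase, had 2.30, 2.17 and 2.38 CPM in 5xFAD and 1.72, 1.57 and 1.49 in Zbp1-/- 5xFAD, and interactions of 0.17 ± 0.67 and -4.34 ± 0.73. The difference for Mx1 was 4.46 ± 1.05 (edgeR unadjusted p = 0.000324, adjusted p = 0.9999). Cxcl10, a T cell chemokine, had -0.49 and -3.51, and Ifit3 -0.47 and -2.25. In the Zbp1 interaction Cxcl10 ran from -1.60 without WT 2 to -0.026 without WT 3, Ifit3 from -0.90 to -0.28 without the same libraries, and Ifit1 was at -0.64 without Zbp1-/- 3. Mx1 changed sign when WT 1, Zbp1-/- 2 or Zbp1-/- 3 was left out. Gbp5 had -1.92 and -1.40, and Igtp -1.86 (-0.85 without 5xFAD 3) and -1.82. Spp1 had -1.69 and 0.24, and Asb18 1.30 and 0.53.

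**Figure D4:**
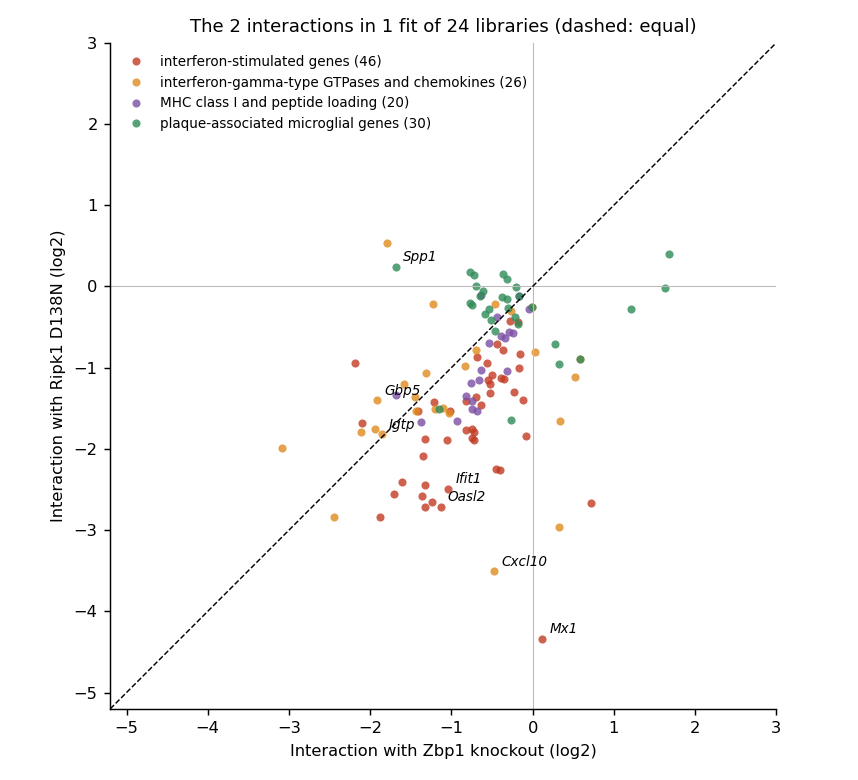
Interaction of 5xFAD with Zbp1 knockout (x axis) and with Ripk1 D138N (y axis) in log2, from the fit of 24 libraries, for the genes of 4 lists; the axes share no libraries. Most interferon-stimulated genes lie below the dashed line of equal values, with Mx1 and Cxcl10 the farthest, while plaque microglial genes lie near 0 on the y axis.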

How the data were processed

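2 deposited tables were used, whole-number counts per gene made by the authors (featureCounts, as the sample descriptions name the tables), 1 per cohort. HISAT2, DESeq2 1.42.1 and edgeR 4.0.16 are named in the submitters' processing notes, which list mm10, GRCm38, mm39 and GRCm39 without saying which was used, and the counting of multi-mapped reads and of strand is not given in the sources used here. Of 55487 gene IDs 55141 were paired with a symbol.

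Counts were analysed in R 4.3.3 with edgeR 4.0.16 (filterByExpr, TMM, 1 mean per genotype, quasi-likelihood F test), which left 21274 genes in the 12 libraries and 22565 in the 24. Benjamini-Hochberg adjusted p under 0.05 was a call. The SE is the absolute log2 value over the square root of F. DESeq2 1.42.0 and limma 3.58.1 were alternatives. The steps were tested on simulated data. No libraries were near-duplicates (chi-square per degree of freedom between replicates 7.28 to 78.1).

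The comparison, the 38 gene lists (681 of 702 symbols tested) and the tests were chosen with earlier results of these data known. Named genes were the 10 per direction with the smallest interaction p (symbols other than Gm and Rik models, mean of at least 1 CPM), Zbp1, Ripk1, Ripk3, Mlkl, Thy1 and App, and of each list the 2 smallest p and the 2 most abundant. Not all are printed, and some are not reported here. Promoters are RefSeq windows of GRCm38.p6, 250 bases before to 50 after a start.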

Additional observations from a re-analysis of the deposited data

How the results depend on the processing

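The count of genes called in the interaction was 0 under DESeq2, RLE size factors, a filter of 1 CPM in 3 libraries, voom with quality weights, the Thy1 covariate, the omission of WT 2 and 5xFAD 2, and each of the 12 omissions of a single library. Without the low-count filter it was 29, and genes called were 1030 in 5xFAD against WT, 628 in Zbp1-/- 5xFAD against Zbp1-/-, 498 in Zbp1-/- 5xFAD against 5xFAD and 94 in Zbp1-/- against WT, and the cause was not tested. Interaction genes at an unadjusted p under 0.05 numbered 1314 without that filter, 773 with voom, 1045 without WT 2 and 5xFAD 2, and 400 to 888 with a single library left out. For the same 4 contrasts DESeq2 called 1034, 510, 156 and 1. Voom called 872 in Zbp1-/- 5xFAD against Zbp1-/- and 115 in Zbp1-/- 5xFAD against 5xFAD. With the Thy1 covariate, which nearly separates carriers from non-carriers, the first 2 contrasts had 0 calls each. Without WT 2 and 5xFAD 2 the first 3 had 1121, 583 and 4. With a single library left out they had 413 to 1103, 123 to 387 and 0 to 82, the last without 5xFAD 3, and Zbp1-/- against WT stayed at 0. The difference of the Zbp1 and Ripk1 interactions had 0 calls under each alternative run. With the replicate block Zbp1-/- 5xFAD against 5xFAD had 41 calls and the interaction 0. Same-numbered libraries of different genotypes correlated at -0.11 to 0.40 (median 0.072, 6 of 18 pairs over 0.1). Libraries of other number and genotype correlated at -0.34 to 0.21 (median -0.037, 3 of 36 over 0.1). In 8 of 12 libraries the best correlation was with their own number, so same-numbered libraries were somewhat more alike. The labels do not say what the numbers stand for, so the block was run only as an alternative. Of 1558 recomputed gene values 22 changed sign. Mlkl was 0.058 with voom, 0.39 without WT 2 and 5xFAD 2 and -0.52 to 0.55 with a library left out. Ttr was -0.13 with the replicate block, -2.60 without WT 2 and 5xFAD 2 and -3.16 to 2.31 with a library left out. Without WT 2 and 5xFAD 2, Folr1 was -1.40 and Clic6 -0.064. With a library left out the ranges were -1.76 to 3.18 for Folr1, -0.031 to 2.20 for Clic6, -0.25 to 0.79 for Mx1, -0.34 to 6.36 for Cst7, -0.46 to 1.90 for Itgax, -0.42 to 0.071 for Irf8, -0.21 to 0.039 for Ripk1, -0.0060 to 0.070 for App and -3.48 to 2.61 for Zbp1. The low total of WT 1 and 3 libraries per genotype limit the precision of low genes.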

Other observations

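Activity-regulated immediate early genes had a median of 0.15 in the Zbp1 interaction and -1.93 in the Ripk1 interaction in the fit of 24 libraries. In the 12-library fit the Zbp1 value was 0.21, and -0.057 without WT 1. Of these genes 12 of 21 were higher in the Zbp1 interaction at an unadjusted p under 0.05 in the test of the difference, with 0 called, where 1.37% of all genes were higher. Bdnf, a neurotrophin induced by activity, had 0.37 in the Zbp1 interaction (12-library fit) and -0.66 in the Ripk1 interaction. Lymphocyte markers were near the limit of detection: the 8 of 16 T and NK cell genes that could be tested summed to 1.30 to 3.01 CPM in WT, 3.48 to 5.28 in 5xFAD, 1.19 to 2.06 in Zbp1-/- and 3.31 to 4.27 in Zbp1-/- 5xFAD. Cd8a, a cytotoxic T cell coreceptor, was at 0 in all WT libraries, at 1.08, 1.10 and 0.344 CPM in 5xFAD, 0.133, 0.526 and 0.232 in Zbp1-/- and 0.956, 0.214 and 0.761 in Zbp1-/- 5xFAD, and no fold is given against a group at 0.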
